A study of Homo sapiens with 9 samples.

Results

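Protease inhibitors and the urokinase system were followed as 9 named genes in RNA sequencing of GBM43 cells, a human glioblastoma line, grown in 3D hyaluronic acid gel devices. The genes were taken from the deposited table by symbol: TIMP1, TIMP2, TIMP3, TIMP4, TFPI2, SERPINE2, RECK, PLAU and PLAUR. All 9 were found among 58735 genes, and 8 of them reached 1 FPKM in at least 3 libraries and were tested among 11845 genes. TIMP4 was below that level. FPKM counts fragments per kilobase of gene length, scaled to a total for each library, so levels can be set side by side between genes. There were 9 libraries in 3 groups of 3. MK801 devices received 50 µM MK801, which blocks the channel of NMDA receptors, glutamate-gated channels, and their core and invasive cells were sequenced as 1 pool because few cells had invaded. The invasive and core groups are the cells that had left the seeded core and the cells that had not, cut apart with a scalpel in control devices, for which the labels name both plain medium and DMSO. All groups share the gel, the hyaluronidase digestion that freed the cells and the single cell line. The question of the study is what glutamate outside the cells and NMDA receptors contribute to invasion. The labels do not say whether the 3 libraries of a group began as separate cultures. P-values therefore speak of the spread among these libraries, which may be technical.

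TIMP proteins are secreted inhibitors that bind the active site of matrix metalloproteinases, the enzymes that cut collagens and other matrix proteins. TIMP2 has a second role, since together with the membrane-bound metalloproteinase MMP14 it brings pro-MMP2 to its activation, and TIMP3 stays bound to the matrix and also inhibits ADAM and ADAMTS enzymes. RECK is a membrane-anchored glycoprotein that restrains several metalloproteinases. Urokinase, encoded by PLAU, turns plasminogen into the broad protease plasmin, and its receptor, encoded by PLAUR, holds it at the cell surface. SERPINE2 encodes protease nexin 1, a serpin that traps thrombin, urokinase and plasmin, and TFPI2 encodes a Kunitz-type inhibitor of plasmin and other serine proteases that is stored in the matrix. Urokinase, its receptor and metalloproteinases are studied in glioblastoma for their part in invasion through brain matrix.

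The libraries held 15584610 to 54409666 fragments assigned to genes. The top value was that of MK801 replicate 3, and the next highest was 23652330 in core replicate 1. At the depth of the smallest library, MK801 libraries detected 15161, 19031 and 21517 genes, invasive libraries 15975 to 19140 and core libraries 20322 to 21414. Averaged over fragments, transcript GC content was 50.5 to 54.2% in MK801, 52.7 to 54.4% in invasive and 49.8 to 51.1% in core libraries. Within the MK801 group, replicates 1 and 3 stand at opposite ends of both measures. Of 12 glioblastoma and astroglial markers, 4 (VIM, CD44, EGFR and SOX2) reached 1 FPKM in at least 3 libraries, and OLIG2, AQP4 and CHI3L1 were at 0 in all 9. Of 8 myeloid markers 1, of 8 endothelial markers 2, of 7 neuronal markers 1 and of 6 oligodendrocyte markers 1 reached that level. Fibroblast and pericyte markers reached it for 8 of 10, with summed levels of 90.0 to 208 FPKM in MK801, 362 to 638 in invasive and 80.0 to 155 in core libraries. In such bulk samples of 1 cell line, fewer cells that express a marker and less of its RNA per cell cannot be told apart.

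TIMP1 was the most abundant of the 9 genes in every library. TIMP1 (chromosome X, 47582313 to 47586789 on GRCh38) was at 573, 386 and 195 FPKM in MK801 libraries, 309, 649 and 270.4 FPKM in invasive libraries and 204, 233 and 156 FPKM in core libraries. It ranked between 86 and 170 among all genes by FPKM in every library. Invasive libraries lay above all core libraries, while MK801 libraries overlapped with both groups. The highest 2 values came from invasive replicate 2 and MK801 replicate 1, the 2 libraries with the fewest genes detected. With the number of detected genes as a covariate in limma, the log2 difference of TIMP1 between invasive and core libraries was 0.13 (95% interval -0.35 to 0.62), against 0.95 without it. Every invasive library had fewer detected genes (15975 to 19140) than every core library (20322 to 21414). The covariate thus also takes up group difference, so the 2 cannot be told apart.

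TIMP2 (chromosome 17, 78852977 to 78925387) was at 84.5, 74.1 and 33.8 FPKM in MK801 libraries, 136, 155 and 116 FPKM in invasive libraries and 58.1, 33.5 and 38.3 FPKM in core libraries. All 3 invasive libraries stood above the other 6, and MK801 replicate 3 lay within the core range. TIMP3 (chromosome 22, 32801701 to 32863043) was at 40.6, 41.0 and 27.3 FPKM in MK801 libraries, 42.3, 46.7 and 43.7 FPKM in invasive libraries and 20.3, 8.77 and 14.5 FPKM in core libraries. For TIMP3 the core libraries were the low ones, with no overlap with either other group. The invasive libraries varied least, with a coefficient of variation of 5.15% for TIMP3, against 39.6% in core libraries.

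TIMP4 (chromosome 3, 12153051 to 12159351), the family member known from heart and brain, had 0 fragments in all 9 libraries. A count of 0 leaves room for 3 fragments, which is 0.128 FPKM or less depending on the library, for counting error alone. RECK (chromosome 9, 36036433 to 36124451) was the lowest of the detected genes, at 0.619, 1.02 and 1.59 FPKM in MK801 libraries, 1.14, 0.919 and 0.994 FPKM in invasive libraries and 1.79, 1.64 and 2.12 FPKM in core libraries. The core libraries were all above the other 6. RECK rested on 53 to 624 fragments per library.

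Among the serine protease inhibitors, TFPI2 (chromosome 7, 93885396 to 93890991) was at 17.6, 17.6 and 31.5 FPKM in MK801 libraries, 6.93, 3.62 and 4.56 FPKM in invasive libraries and 13.0, 18.8 and 14.4 FPKM in core libraries. The 3 invasive libraries were the 3 lowest, while MK801 replicates 1 and 2 lay within the core range and MK801 replicate 3 above it. SERPINE2 (chromosome 2, 223975112 to 224039319) was at 6.44, 6.87 and 7.98 FPKM in MK801 libraries, 7.66, 7.91 and 9.23 FPKM in invasive libraries and 8.58, 6.56 and 8.29 FPKM in core libraries. Its 3 groups overlapped, and the highest library was 1 of the invasive ones.

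PLAU (chromosome 10, 73909177 to 73917497) was at 56.3, 49.6 and 27.6 FPKM in MK801 libraries, 93.7, 80.5 and 74.3 FPKM in invasive libraries and 49.0, 32.4 and 39.1 FPKM in core libraries. As with TIMP2, the invasive libraries were above the other 6. PLAUR (chromosome 19, 43646095 to 43670547) was at 149.5, 124 and 68.8 FPKM in MK801 libraries, 115, 169.9 and 105 FPKM in invasive libraries and 89.9, 93.2 and 72.9 FPKM in core libraries. All invasive libraries were above the core libraries, and the 2 highest values came from the same 2 libraries as for TIMP1. Receptor transcripts exceeded urokinase transcripts in all 9 libraries, by 2.49 to 2.65 times in MK801, 1.23 to 2.11 times in invasive and 1.84 to 2.88 times in core libraries.

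**Figure D1:**
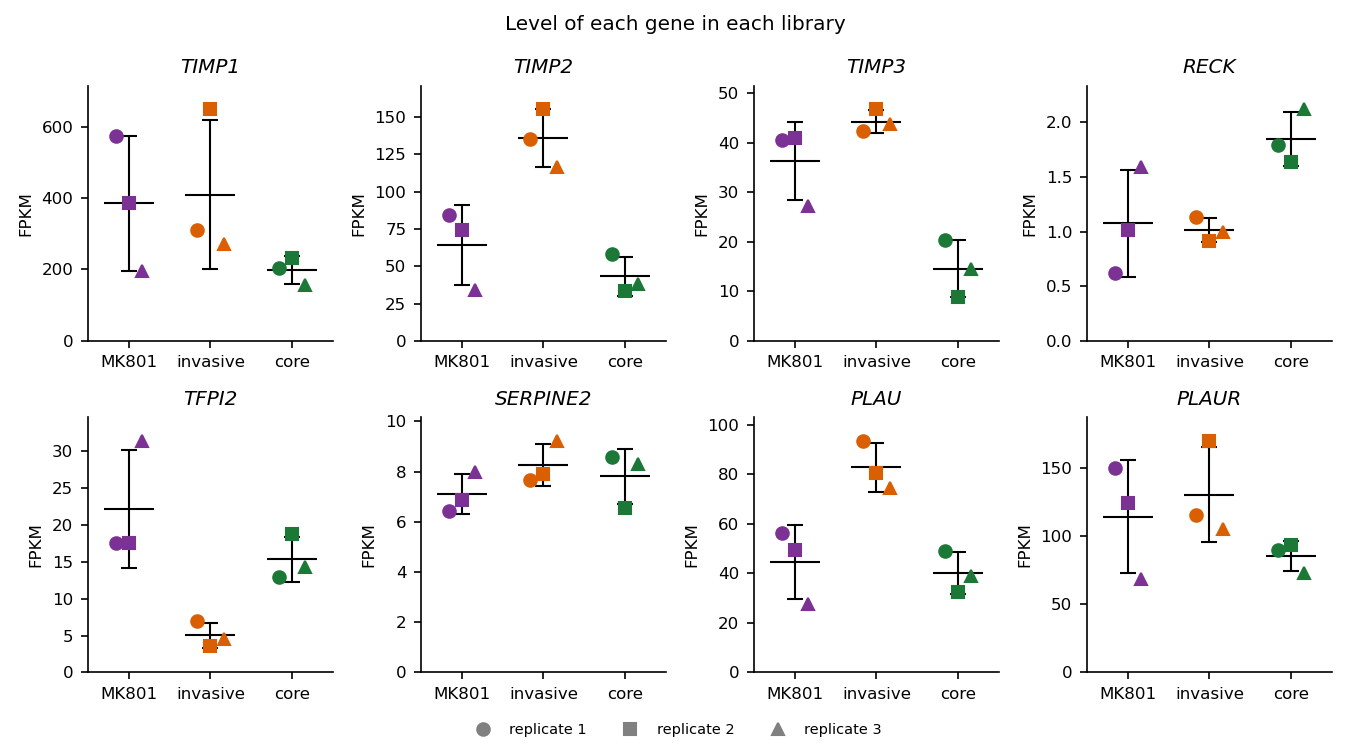
FPKM of the 8 tested genes in each library, by group, with 1 panel and 1 linear axis from 0 per gene. Points are libraries, with the symbol giving the replicate number, and bars are the mean and SD of 3 libraries. The invasive libraries are above the other 6 for TIMP2 and PLAU and below them for TFPI2, while TIMP3 is low in core libraries.

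The comparison of invasive with core cells of control devices asks what marks the cells that had left the core. TIMP2 averaged 136 ± 19.4 FPKM in invasive and 43.3 ± 13.0 FPKM in core libraries, and TIMP3 44.2 ± 2.28 FPKM in invasive and 14.5 ± 5.75 FPKM in core libraries (SD, n = 3 each, here and below). PLAU averaged 82.8 ± 9.86 FPKM in invasive and 40.2 ± 8.32 FPKM in core libraries. TFPI2 went the other way, at 5.04 ± 1.70 FPKM in invasive and 15.4 ± 3.04 FPKM in core libraries. Of the 8 tested genes, 5 were higher in every invasive than in every core library (TIMP1, TIMP2, TIMP3, PLAU and PLAUR), where 32% of all genes tested were, and 2 were lower (TFPI2 and RECK), where 32.8% of all genes were. Separation in either direction thus held for 7 of the 8 genes, beside 64.8% of all genes. The summed fibroblast and pericyte markers were also higher in every invasive library, at 362 to 638 FPKM, than in core libraries, at 80.0 to 155 FPKM, and their part in these differences was not tested. Of the 10 markers 7 were higher in every invasive library, with COL1A1 and COL1A2 making up most of the sum, while FAP and DCN overlapped and RGS5 was lower in every invasive library.

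The test used log2(FPKM + 1), a scale on which differences of genes near or below 1 FPKM come out too small. On it, the differences were 1.66 (SE 0.36) for TIMP2, 1.61 (SE 0.30) for TIMP3, 1.04 (SE 0.29) for PLAU and -1.46 (SE 0.29) for TFPI2. The differences of TIMP1 (0.95, SE 0.44) and PLAUR (0.58, SE 0.32) were of less certain sign, with 95% intervals of -0.03 to 1.94 and -0.14 to 1.30. Without invasive replicate 2 they were 0.57 for TIMP1 and 0.37 for PLAUR. PLAUR was at 0.042 with detected genes as a covariate, a number that separates these groups by itself. RECK differed by -0.50 (SE 0.22). SERPINE2 differed by 0.08, with an interval of -0.36 to 0.51. The median over the 8 genes was 0.77, beside -0.02 over all genes tested. Over genes that passed a filter of 5 FPKM, which RECK did not, the median was 0.24. Limma fitted to all 9 libraries called 0 of the 8 genes, as it called 0% of all genes, with Benjamini-Hochberg adjusted p of 0.075 for TIMP3, 0.079 for both TIMP2 and TFPI2, and 0.104 for PLAU. Before adjustment 4461 genes had a p under 0.05, and 0 genes were called by limma-voom on whole fragments worked back from FPKM.

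The call depended on the MK801 libraries, which share the estimate of the spread. Fitted to the 6 control libraries alone, limma called 6 of the 8 genes (TIMP1, TIMP2, TIMP3 and PLAU higher, TFPI2 and RECK lower), with adjusted p of 0.0031 to 0.038, where it called 52.2% of all genes (26.3% higher, 25.9% lower). Without MK801 replicate 1 limma called TIMP2, TIMP3, PLAU and TFPI2 and 39.5% of all genes. Without MK801 replicate 3 it called TIMP1 as well and 41.3% of all genes. In the 6 control libraries with each library's trend over gene GC content removed, 17.2% of all genes were called, and TIMP2 (log2 1.42, adjusted p = 0.010), TIMP3 (1.67, adjusted p = 0.011), PLAU (0.69, adjusted p = 0.032) and TFPI2 (-1.002, adjusted p = 0.020) were among them. TIMP1 (0.36), RECK (-0.11) and PLAUR (0.10) then had intervals that held 0, while that of SERPINE2 (0.36, 0.06 to 0.66) did not, although its adjusted p was 0.0916. With the replicate number as a block, limma on all 9 libraries called TIMP2, TIMP3, PLAU and TFPI2 (adjusted p = 0.0424 each) and 2525 of 11845 genes. With the block and the GC trend removed it called 0 genes. Transcript GC content was 58.0% for TIMP1, 55.9% for PLAUR, 54.0% for PLAU, 52.3% for TIMP2, 48.7% for TIMP3, 46.0% for SERPINE2, 44.6% for RECK and 43.5% for TFPI2.

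**Figure D2:**
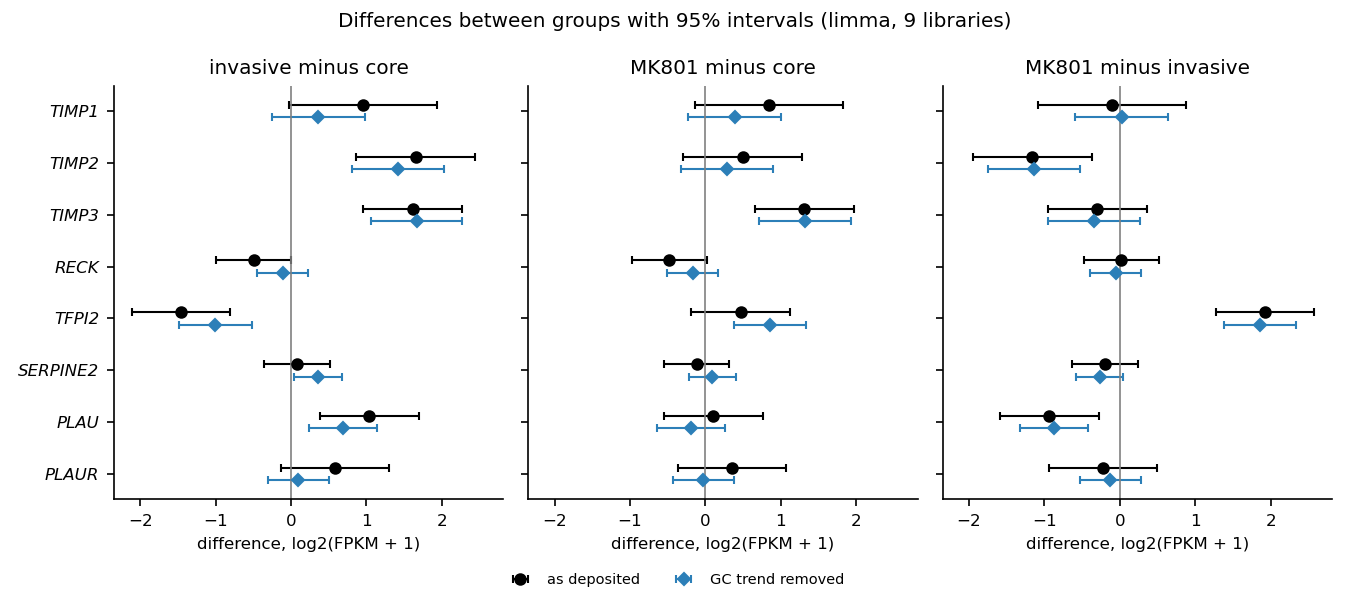
Difference between groups in log2(FPKM + 1) for the 8 tested genes, with 95% intervals from limma on 9 libraries. Black circles are the values as deposited and blue diamonds those after removal of each library's trend over gene GC content. TIMP2, TIMP3, PLAU and TFPI2 keep intervals that leave out 0 in invasive minus core under both. Those of TIMP1 and PLAUR hold 0 under both, that of RECK only after the removal and that of SERPINE2 only before it. In that comparison TIMP3 and SERPINE2 are farther from 0 after the removal, and the other 6 genes nearer to it.

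Promoter windows of RefSeq on GRCh38.p14 were matched for 8 of the 9 members, TIMP2 being the other. Each runs from 250 bases before to 50 after a RefSeq start, which can lie inside the gene limits given above. The windows were searched on both strands for TGANTCA, where N is any base. This takes in TGACTCA and TGAGTCA, the letters bound by AP-1, and looser forms. The search also took GGGCGG, known from SP1. It took GGAATG, known from TEAD factors. Last came the TATA box, TATAAA. No matches overlap in the windows printed here. The TFPI2 and PLAUR windows were the ones that hold TGANTCA, as 7.71% of 35116 promoters do. The match reads TGAGTCA in PLAUR and TGAATCA, a looser form, in TFPI2. GGGCGG occurred in 6 members and in 45% of promoters, GGAATG in 0 members and in 14% of promoters, and the TATA box in 0 members and in 11.5% of promoters. The windows of TFPI2 and TIMP3 are shown because these genes differed in opposite directions in invasive against core libraries, and that of PLAUR for its match to TGANTCA. Capitals mark matches, and each window reads 5′ to 3′ on the strand of its gene.
TFPI2, chr7:93890704-93891003, minus strand: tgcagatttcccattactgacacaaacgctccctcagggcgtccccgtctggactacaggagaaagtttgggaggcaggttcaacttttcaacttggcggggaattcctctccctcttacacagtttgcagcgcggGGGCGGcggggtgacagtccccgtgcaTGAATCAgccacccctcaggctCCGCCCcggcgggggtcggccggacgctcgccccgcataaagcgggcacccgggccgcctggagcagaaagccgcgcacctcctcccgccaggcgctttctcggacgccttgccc
TIMP3, chr22:32801455-32801754, plus strand: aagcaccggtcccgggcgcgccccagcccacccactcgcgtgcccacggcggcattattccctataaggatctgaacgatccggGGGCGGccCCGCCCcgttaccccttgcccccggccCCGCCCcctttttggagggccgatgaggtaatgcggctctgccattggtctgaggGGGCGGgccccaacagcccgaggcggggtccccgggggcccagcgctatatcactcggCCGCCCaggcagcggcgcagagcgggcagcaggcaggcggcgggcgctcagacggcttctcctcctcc
PLAUR, chr19:43670120-43670419, minus strand: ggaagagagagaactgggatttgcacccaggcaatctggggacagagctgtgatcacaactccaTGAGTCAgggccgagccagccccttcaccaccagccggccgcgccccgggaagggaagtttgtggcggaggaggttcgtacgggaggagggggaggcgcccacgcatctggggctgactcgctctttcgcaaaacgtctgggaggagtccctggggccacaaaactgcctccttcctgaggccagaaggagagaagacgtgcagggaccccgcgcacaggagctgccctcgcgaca
The GC content of these windows was 65.3% for TFPI2, 72.7% for TIMP3 and 64% for PLAUR, beside a median of 58.7% over all promoters. Counted from the RefSeq start within each window, the match to TGANTCA begins at position -87 in TFPI2 and at position -186 in PLAUR. Both matches lie inside the gene limits given above. TIMP3 holds 5 matches to GGGCGG, TFPI2 2 and PLAUR 0. Binding to these letters was not measured.

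The comparison of MK801 with core cells asks how the treated pool stands to control cells that stayed in the core. TIMP3 was at 36.3 ± 7.81 FPKM in MK801 and 14.5 ± 5.75 FPKM in core libraries, a difference of 1.31 (SE 0.30, 95% interval 0.66 to 1.97) on the log2(FPKM + 1) scale. RECK was at 1.08 ± 0.487 FPKM in MK801 and 1.85 ± 0.247 FPKM in core libraries. TIMP3 was higher in every MK801 than in every core library, as were 9.89% of all genes tested, and RECK was lower in every one, as were 8.82%. The other 6 tested genes overlapped. PLAU averaged 44.5 ± 15.0 FPKM in MK801 and 40.2 ± 8.32 FPKM in core libraries (log2 0.10, interval -0.55 to 0.76), and TFPI2 22.2 ± 8.02 FPKM in MK801 and 15.4 ± 3.04 FPKM in core libraries (log2 0.47, interval -0.19 to 1.12).

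Limma called 0 of the 8 genes and 0% of all genes, with 2509 genes at an unadjusted p under 0.05 and 0 called by limma-voom, and the adjusted p of TIMP3 was 0.235. MK801 replicate 3 decided this count. Without it, 4 of the 8 genes passed (TIMP1, TIMP2 and TIMP3 higher, RECK lower, adjusted p = 0.0083 to 0.031), where 50.2% of all genes passed. The difference of TFPI2 was 0.20 without that library. That of TIMP2 was 0.89 without it and 0.25 without MK801 replicate 1, against 0.49 with all libraries, and those of TIMP1 and RECK were 0.49 and -0.31 without MK801 replicate 1, against 0.85 and -0.48 with all libraries. The difference of TIMP3 was 1.501 without MK801 replicate 3 and 1.22 without MK801 replicate 1. With the GC trend removed, the interval of TFPI2 left out 0 (log2 0.86, 0.38 to 1.34, limma adjusted p = 0.360), those of PLAU and PLAUR were centred below 0 (-0.19 and -0.03), and 0% of all genes passed.

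MK801 against invasive libraries asks how the treated pool stands to control cells that invaded. TFPI2 differed most, at 22.2 ± 8.02 FPKM in MK801 and 5.04 ± 1.70 FPKM in invasive libraries, a ratio of means of 4.41 and a log2 difference of 1.93 (SE 0.29, 95% interval 1.27 to 2.58). It had the sixth smallest p of all genes tested in this comparison. TIMP2 was at 64.2 ± 26.8 FPKM in MK801 and 136 ± 19.4 FPKM in invasive libraries (log2 -1.16, SE 0.36), and PLAU at 44.5 ± 15.0 FPKM in MK801 and 82.8 ± 9.86 FPKM in invasive libraries (log2 -0.94, SE 0.29). TIMP3 was at 36.3 ± 7.81 FPKM in MK801 and 44.2 ± 2.28 FPKM in invasive libraries, a difference of -0.30 whose interval ran from -0.96 to 0.36. Without MK801 replicate 3 the differences were -0.76 for TIMP2 and -0.11 for TIMP3.

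TFPI2 was higher in every MK801 than in every invasive library, as were 5.22% of all genes tested. TIMP2, TIMP3 and PLAU were lower in every one, as were 5.63%, with TIMP3 apart by the narrow gap between 41.0 FPKM in MK801 replicate 2 and 42.3 FPKM in invasive replicate 1. Limma called 0 of the 8 genes and 0% of all genes, with 978 genes at an unadjusted p under 0.05 and 0 called by limma-voom. The adjusted p of TFPI2 was 0.081, and it ranged from 0.0076 to 0.311 over 26 alternatives. TFPI2 passed the threshold with the GC trend removed (log2 1.86, limma adjusted p = 0.020), where 0.633% of all genes were called. The same held with the number of detected genes as a covariate (log2 1.84, limma adjusted p = 0.0076), where 2.73% were called and TIMP2 passed as well (log2 -1.02, limma adjusted p = 0.042). Without MK801 replicate 1, TFPI2 passed at an adjusted p of 0.046, where 0.355% were called. Fitted to the 6 libraries of these groups alone its adjusted p was 0.311, or 0.056 with the GC trend removed as well, where 0.0338% of all genes passed. Without MK801 replicate 3 it was 0.096.

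These 3 comparisons share their groups, so their values are not independent of each other. Side by side, the log2 differences of TFPI2 were -1.46 for invasive minus core, 0.47 for MK801 minus core and 1.93 for MK801 minus invasive. Those of TIMP3 were 1.61, 1.31 and -0.30, and those of TIMP2 1.66, 0.49 and -1.16, in the same order. Of the 8 genes, 0 had all MK801 libraries above or all below the 6 control libraries, as 2.45% of all genes tested did. SERPINE2 stayed within -0.20 to 0.08, and its 95% intervals within -0.63 to 0.51. The order of the mean levels of TIMP2 and PLAU was thus invasive, MK801, core, with MK801 and core overlapping, and that of TFPI2 was MK801, core, invasive, with MK801 and core overlapping. MK801 libraries pool core and invasive cells, while no control library is such a pool. Treatment and the mix of fractions therefore cannot be told apart in the comparisons with MK801.

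A ratio of FPKM values within a library does not depend on how libraries were scaled. The ratio of TIMP3 to TFPI2, a pair chosen after the values were seen, was 2.31, 2.34 and 0.867 in MK801 libraries, 6.10, 12.9 and 9.59 in invasive libraries and 1.56, 0.466 and 1.01 in core libraries. The invasive libraries did not overlap with the other 6. All invasive libraries were above the other 6 for TIMP3 and below them for TFPI2, so this separation followed from the choice of the pair. Summed over the family, TIMP transcripts were at 485 ± 222 FPKM in MK801, 590 ± 228 FPKM in invasive and 255 ± 40.7 FPKM in core libraries. TIMP1 made up 78.4 ± 3.21% of that sum in MK801, 67.5 ± 7.57% in invasive and 77.2 ± 6.56% in core libraries. The share of TIMP2 was 12.1 to 14.8% in MK801, 18.3 to 27.8% in invasive and 12.2 to 20.6% in core libraries.

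**Figure D3:**
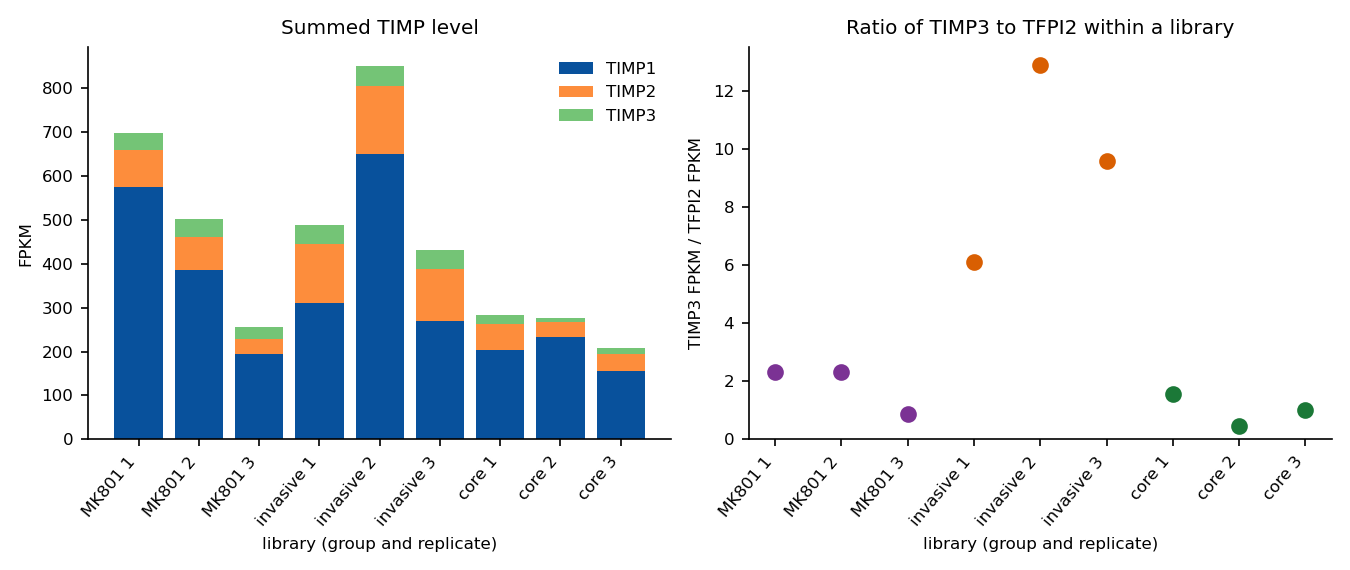
Left, summed FPKM of TIMP1, TIMP2 and TIMP3 in each library, as stacked bars. Right, the ratio of TIMP3 to TFPI2 FPKM within each library, coloured by group, which is 6.10 to 12.9 in invasive libraries and at most 2.34 in the other 6. The pair was chosen after the values were seen, and the separation follows from that choice.

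The enzymes these inhibitors act on were abundant too. The matrix metalloproteinases of the list (genes named MMP) together reached 860 ± 254 FPKM in MK801, 1128 ± 269 FPKM in invasive and 627 ± 80.2 FPKM in core libraries. TIMP over metalloproteinase transcripts was thus 0.556 ± 0.185 in MK801, 0.512 ± 0.071 in invasive and 0.407 ± 0.025 in core libraries. The MK801 mean was raised by replicate 1, at 0.769. MK801 replicates 2 and 3, at 0.462 and 0.438, were below all invasive libraries, at 0.465 to 0.594. MMP14, the membrane-bound activator of pro-MMP2, was at 486, 604 and 271 FPKM in MK801 libraries, 571, 888 and 493 FPKM in invasive libraries and 369, 316 and 269.9 FPKM in core libraries. MMP2, the gelatinase whose activation involves TIMP2, was at 291, 338 and 148 FPKM in MK801 libraries, 376, 457 and 357 FPKM in invasive libraries and 231, 182 and 159 FPKM in core libraries. Both enzymes had their highest mean in the invasive group, with MK801 and core libraries overlapping for both, and MK801 and invasive libraries overlapping for MMP14. TIMP2 over MMP2 was 0.219 to 0.290 in MK801, 0.326 to 0.361 in invasive and 0.184 to 0.251 in core libraries. TIMP2 over MMP14 was 0.123 to 0.174 in MK801, 0.175 to 0.238 in invasive and 0.106 to 0.157 in core libraries. MMP1, the interstitial collagenase, was lowest in the 3 invasive libraries like TFPI2, at 66.4, 86.7 and 124 FPKM in MK801 libraries, 23.5, 36.3 and 31.4 FPKM in invasive libraries and 66.3, 95.2 and 75.3 FPKM in core libraries. Of 15 tested metalloproteinases of the TIMP and RECK list, 6 were higher and 5 lower in every invasive than in every core library, close to the 32% and 32.8% of all genes, with a median log2 difference of 0.13.

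Other parts of the plasminogen system were read from a list of 25 genes, of which 12 were tested. PLG, the plasminogen gene itself, had 0 FPKM in all 9 libraries. PLAT, the tissue-type activator, was at 8.26, 5.45 and 3.02 FPKM in MK801 libraries, 9.02, 12.2 and 7.90 FPKM in invasive libraries and 4.37, 2.17 and 3.27 FPKM in core libraries. SERPINB2, a serpin that inhibits urokinase, was at 8.69, 6.65 and 12.7 FPKM in MK801 libraries, 3.91, 2.67 and 2.99 FPKM in invasive libraries and 5.79, 12.3 and 8.70 FPKM in core libraries, so its invasive libraries were the 3 lowest. MRC2, an endocytic collagen receptor that binds the urokinase receptor, was at 32.2, 30.6 and 15.2 FPKM in MK801 libraries, 54.7, 74.1 and 45.0 FPKM in invasive libraries and 25.1, 16.6 and 15.0 FPKM in core libraries. LRP1, the endocytic receptor that clears complexes of urokinase and its inhibitors, was at 8.88, 15.4 and 7.71 FPKM in MK801 libraries, 16.7, 23.95 and 15.96 FPKM in invasive libraries and 12.1, 11.4 and 8.10 FPKM in core libraries. In invasive against core libraries 7 of the 12 were higher and 2 lower without overlap, beside 32% and 32.8% of all genes, and the median log2 difference was 0.47, while 0 of the 12 passed by limma on 9 libraries.

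Among the other inhibitor families, 8 of 34 further serpins were tested, and in invasive against core libraries 3 were higher and 2 lower without overlap, where 64.8% of all genes were separated in either direction. SERPINF1, a secreted serpin that does not inhibit proteases, was at 2.62 ± 0.686 FPKM in MK801, 5.48 ± 1.61 FPKM in invasive and 1.52 ± 0.228 FPKM in core libraries. TFPI, the Kunitz-type relative of TFPI2 that blocks the tissue factor pathway, was lower in every invasive than in every core library, at 1.496, 3.07 and 5.92 FPKM in MK801 libraries, 2.13, 3.94 and 3.08 FPKM in invasive libraries and 5.89, 6.64 and 7.81 FPKM in core libraries. Of 4 tested Kunitz, Kazal and WAP inhibitors 0 were higher and 1 lower without overlap in invasive against core libraries. Of 5 cysteine protease inhibitors 3 were higher and 1 lower, these counts too standing beside 32% and 32.8% of all genes. Among the higher ones was CST3, the secreted cystatin C, at 22.0 ± 13.7 FPKM in MK801, 40.1 ± 8.20 FPKM in invasive and 10.8 ± 2.77 FPKM in core libraries. PCOLCE, which enhances procollagen processing and carries a TIMP-like domain, was at 27.1, 19.5 and 7.29 FPKM in MK801 libraries, 52.7, 83.8 and 45.6 FPKM in invasive libraries and 18.5, 13.6 and 11.5 FPKM in core libraries. A2M, a general protease trap, stayed at or below 0.045 FPKM.

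**Figure D4:**
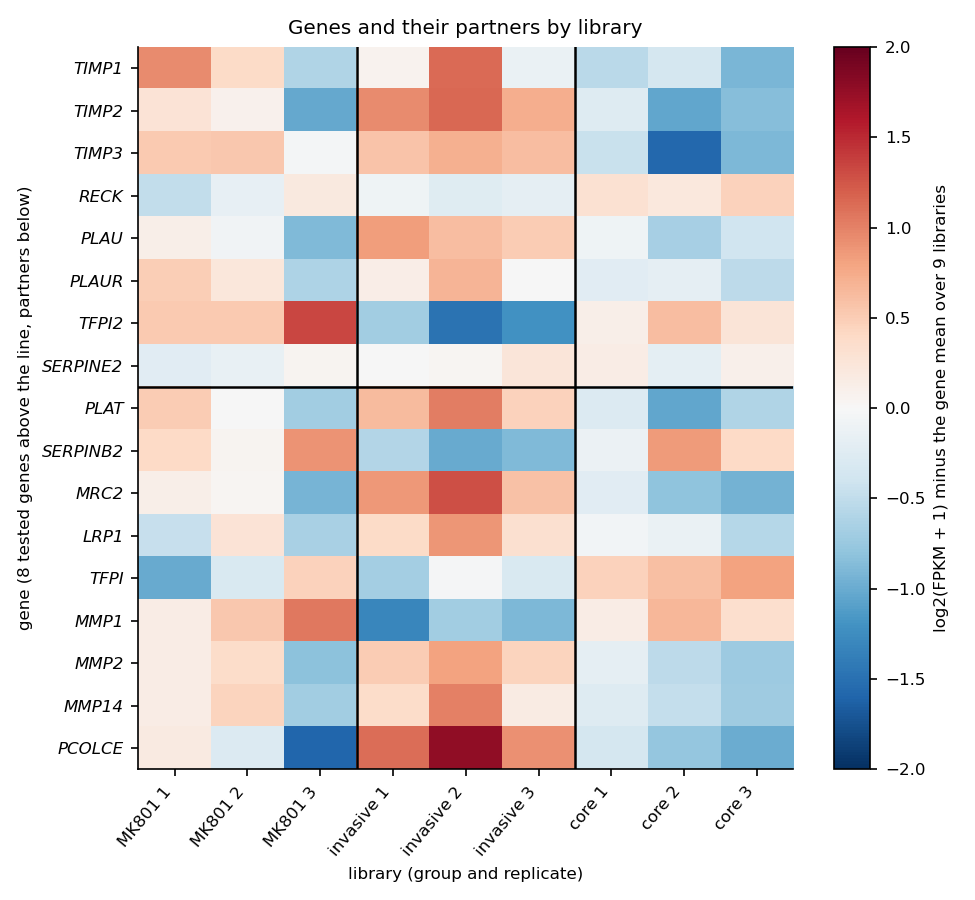
Colour shows log2(FPKM + 1) minus the mean of the gene over 9 libraries, for the 8 tested genes above the line and partners below, with libraries in columns by group. In the invasive columns TIMP2, PLAU, MRC2 and PCOLCE are high and TFPI2, SERPINB2 and MMP1 are low.

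The genes most like each member were taken by Pearson's r of log2(FPKM + 1) over the 9 libraries, among 5886 other protein-coding genes whose mean reached 5 FPKM. The points share library depth and GC content, so r is a description. TFPI2 was most like SERPINB2 (r = 0.952), then EZH1, a histone methyltransferase (0.947), and NDEL1, a dynein regulator (0.940), and 0.391% of the genes exceeded an r of 0.9. TIMP2 was most like COL1A1, a chain of type I collagen (0.992), CTSA, a lysosomal carboxypeptidase (0.992), and LAMB3, a laminin chain (0.992). COL1A1 is among the fibroblast and pericyte markers summed above, and 7.80% of the genes exceeded an r of 0.9 with TIMP2. That share was 1.07% for TIMP3, 3.43% for PLAU, 10.2% for RECK and 0.051% for SERPINE2. TIMP3 was most like the kinase GAK (0.971), AMOTL2 of the angiomotin family (0.957) and the deubiquitinase USP21 (0.955). PLAU was most like PGAP3 (0.990), KANK2 (0.988) and GUSB (0.988). TIMP1 and PLAUR exceeded 0.9 with 27.6% and 24.8% of the genes, so their pattern over the libraries was a common one. The nearest genes were CTDNEP1 (0.996) for TIMP1, SLC9A3R2 (0.994) for PLAUR, SNX2 (0.994) for RECK and FSTL1 (0.915) for SERPINE2.

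Several members lie inside or over other genes on GRCh38. TIMP1, TIMP3 and TIMP4 sit within the synapsin genes SYN1, SYN3 and SYN2 on the opposite strand. SYN1 reached at most 0.185 FPKM and SYN3 at most 0.028 FPKM, and neither shares an exon base with its TIMP. PLAU shares 916 exon bases with C10orf55 on the opposite strand, which reached at most 0.729 FPKM, and whether strand was used in counting is not given in the sources used here. TIMP2 shares 198 exon bases with CEP295NL, at most 0.236 FPKM.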

How the data were processed

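RNA was measured in 9 libraries. Per the submitters' processing notes, HISAT2 2.0.5, featureCounts 1.5.0-p3 and build GRCh38 were used, without settings. The authors deposited FPKM per gene with the gene length in bases. FPKM times length was a whole multiple of 1 step for 100% of values above 0 (tolerance 0.01 fragments), which gave 15584610 to 54409666 fragments per library, and the depth sets the precision of low values. The deposited FPKM of all 9 libraries had the same median ratio, 1.02, to the mean over libraries (geometric, genes above 0 in all), so median-of-ratios scaling changes no library relative to another. 0 value columns were left without a sample.

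Limma 3.58.1 (R 4.3.3) was fitted to log2(FPKM + 1) with 1 mean per group, 6 residual degrees of freedom and its prior variance following the mean level, over genes with 1 FPKM in at least 3 libraries. P-values were adjusted by Benjamini-Hochberg over all genes, with a threshold of 0.05. With 3 libraries on each side an exact permutation test has 0.1 as its smallest p, and it was not used. Intervals are 95%. GC content came from GENCODE 29 transcripts (loess span 0.3). Recovered fragments were normalised by a trimmed mean of log ratios (TMM) for limma-voom.

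Members, lists and alternatives were chosen with earlier results of these data known. Named genes are the members, the 3 genes most like each, up to 3 per list and comparison with the smallest p at 5 FPKM or more, and a set of fixed partners, of which 1 is not reported here. Which of these the text names was chosen after their values were seen.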

Additional observations from a re-analysis of the deposited data

How the results depend on the processing

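Of the fits as reported, 0 of all genes and 0 of the 8 tested members passed in each comparison. In invasive minus core, 6179 genes and 6 members passed with only those groups fitted, 2038 genes and 4 members with those groups and the GC trend removed, 6 genes with quantile normalization, 4 genes with the number of detected genes as covariate, 1 gene among protein-coding genes alone and 14 genes without both libraries of fewest detected genes (an alternative chosen after seeing the data, as was scaling to gene totals). With 1 library left out in turn the counts were 0 to 4888 genes and 0 to 5 members, the high counts coming without MK801 replicate 1 (4675 genes, 4 members) or replicate 3 (4888 genes, 5 members). In MK801 minus core, leaving out 1 library gave 0 to 5941 genes and 0 to 4 members, the highest without MK801 replicate 3. In MK801 minus invasive, 75 genes and 1 member passed with the GC trend removed, 4 genes with the GC trend removed and only those groups fitted, 323 genes and 2 members with the detected-gene covariate, 1 gene with a filter of 5 FPKM, and 0 to 42 genes and 0 to 1 member with 1 library left out, the most without MK801 replicate 1.

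The replicate number as a block gave 2525 genes and 4 members in invasive minus core (TIMP2, TIMP3, PLAU and TFPI2, limma adjusted p = 0.0424 each), and 0 genes and 0 members there with the GC trend removed as well. With both, 46 genes and 1 member passed in MK801 minus invasive. Deviations from the group means correlated at -0.007, 0.243 and 0.445 between same-numbered invasive and core libraries. Not every library correlated best with its own number, but so few libraries cannot decide whether the numbers are pairs. The deposited column names share a number, A1c with A1i, A2c with A2i and A4c with A4i, and those of MK801 are B1, B2 and B4. The labels do not say whether same-numbered fractions came from 1 device, so the main fit did not take the numbers as pairs.

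In invasive minus core all tested members but SERPINE2 kept their sign under every alternative with a value, 26 of them, or 25 for RECK. In MK801 minus invasive TFPI2, TIMP2, TIMP3, PLAU and SERPINE2 did so, and in MK801 minus core TIMP1, TIMP2, TIMP3, TFPI2 and RECK. Several alternatives change the spread or the genes tested and leave the difference itself as it was, so they could not turn a sign. Among these are the block, the fit to only the groups compared, the filters and leaving out a library of the group not compared. Signs turned only where the difference in the reported fit lay between -0.23 and 0.35, and the cause was not tested. SERPINE2 was at -0.19 in invasive minus core when FPKM was rescaled to gene totals (a scaling that moved the median of all genes to -0.26) and -0.029 to 0.14 with 1 library left out, and at 0.091 in MK801 minus core after GC correction, with or without the block or with only those groups. PLAU in MK801 minus core was at -0.30 with quantile normalization, -0.19 after GC correction (also with the block or only those groups), -0.16 with the detected-gene covariate, -0.093 without the 2 libraries with the fewest genes, -0.19 with gene totals, and -0.093 to 0.41 with 1 library left out. PLAUR in MK801 minus core was at -0.11 with quantile normalization, -0.028 after each GC correction and -0.045 with the covariate, and in MK801 minus invasive -0.46 to 0.10 with 1 library left out. In MK801 minus invasive, TIMP1 was at 0.025 after each GC correction, 0.10 with the covariate and -0.46 to 0.31 with 1 library left out, and RECK at -0.0074 with a pseudocount of 0.1, -0.057 after each GC correction, -0.054 with the covariate and -0.16 to 0.18 with 1 library left out. RECK had no value under the filter of 5 FPKM. Depth limits mainly RECK, with 53 fragments in its lowest library, and TIMP4.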
